A study of Mus musculus with 17 samples.

Results

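Macrophages of skin and of kidney from mice given vehicle only, called untreated here, were compared in 6 single-cell RNA sequencing libraries, 3 per tissue. A cell was counted as a macrophage where C1qa, C1qb and C1qc together gave at least 5 UMIs (unique molecular identifiers, each standing for 1 captured RNA molecule), Csf1r gave at least 1 UMI, and Cd3d, Cd3e and Cd3g gave 0. A cell also had to hold 200 genes or more, with no more than 20% of its UMIs from mitochondrial genes. The gate held 3100 of the 35315 cells of the 6 libraries, 1439 from skin and 1661 from kidney. Over all 17 libraries of the series it held 9976 of 91829 cells. The gate was chosen with these data known, so its own genes are given as a description, with no test.

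The study followed fibrosis of skin after bleomycin and of kidney after aristolochic acid, in mice with or without overexpression of SARA, a protein encoded by Zfyve9. All mice were 8 weeks old and carried PDGFRb-Cre and Z/EG, a reporter that turns on green fluorescent protein (GFP) once Cre has acted. The mice used here were labelled wild type (WT), that is, without the SARATg transgene, a human ZFYVE9 cDNA behind a stop cassette that Cre removes, and the skin libraries went against that label, as described below. WT skin came from mice given PBS under the skin, and WT kidney from mice given vehicle into the peritoneum. The skin was taken from the back, where the study injected bleomycin. The paper proposes that leukocytes in PBS skin were presumably drawn by inflammatory reactions to the injection itself. The part of the injection in the values below was not tested. Tissue was digested with Liberase TM and GFP+ cells were sorted, so the libraries hold cells of lineages in which the PDGFRb promoter had been active, leukocytes among them. The study names C57Bl/6J among the mice it bought, but the strain background, sex and number of mice of each library were not given in the sources used here.

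Tissue macrophages engulf dying cells and debris, recycle iron and present antigen to T cells, and each organ gives them a local gene programme. In the dermis, macrophages along vessels are known for scavenger and lectin receptors such as CD163 and the mannose receptor CD206. In the kidney, resident macrophages lie between the tubules and are known for the fractalkine receptor CX3CR1 and for class II MHC. Complement component C1q and the CSF-1 receptor are shared by macrophages of most organs.

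Depth differed between libraries. The 3 skin libraries held 845 to 4882 barcodes and 3355217 to 49773570 UMIs, and the 3 kidney libraries 7879 to 13190 barcodes and 64492436 to 137093834 UMIs. Gated cells numbered 995, 84 and 360 in the skin libraries labelled 1, 2 and 3, and 260, 472 and 929 in kidney libraries 1, 2 and 3. All values per library below keep this order. The gate took 24.4%, 10.8% and 7.77% of the skin cells and 2.95%, 4.69% and 13.4% of the kidney cells. Median depth of a gated cell was 6312 to 11240.5 UMIs in skin and 5210 to 11782 UMIs in kidney, and the summed gated UMIs per library ranged from 622111 to 13236605. Mean mitochondrial share of the gated cells was lower in skin (2.58% to 3.29%) than in kidney (6.79% to 9.54%). From marker genes of other cell types, free RNA was put at 3.60% to 11.0% of the gated UMIs in skin and 18.7% to 33.6% in kidney. Injection route, vehicle and version of the counting software differed between all skin and all kidney libraries, and their effects cannot be told apart from that of tissue.

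All 3 skin libraries stood apart from their labels. In gated cells the entry for human ZFYVE9, the transgene, measured 1060 CPM (UMIs per 1000000 UMIs of the gated cells of a library) in the library labelled skin 1 and 211 CPM in the library labelled skin 2, against 70.3 and 89.7 CPM in the WT bleomycin skin libraries with the same gene list. The gene list of the library labelled skin 3 counted mouse Zfyve9 alone, which measured 574 CPM there and 4.91 to 30.8 CPM in the kidney libraries. In untreated SARATg libraries of that same gene list mouse Zfyve9 measured 310 CPM in skin and 114 and 99.8 CPM in kidney. Each skin library thus held human ZFYVE9 or high mouse Zfyve9 RNA, whereas mouse Zfyve9 was low in the kidney libraries. Any effect of SARA overexpression therefore cannot be told apart from that of tissue in this comparison. The labels were kept. Results are also given without the skin libraries labelled 1 and 3, where these entries were highest. That setting leaves the library labelled skin 2 as the only skin sample, itself with the transgene entry above 0, and its spread is taken from the kidney libraries. Of the barcodes of the library labelled skin 2, 55.5% also occurred in another skin library, 40 of its 84 gated cells included. By pair, 54.9% were shared with WT bleomycin skin 2, 41.4% with WT bleomycin skin 1 and 29.6% with the library labelled skin 1. The cause of this overlap was not tested. Xist, which is expressed from the inactive X chromosome of females, measured 620, 685 and 0 CPM in skin and 0, 831 and 0.227 CPM in kidney, and the Y-linked Ddx3y measured 0, 0 and 85.3 CPM in skin and 70.7, 0 and 37.1 CPM in kidney. Both sexes thus occurred in each tissue, the library labelled skin 3 was the male one of skin, and 0 of 5 sex-linked genes passed the test.

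The label macrophage was checked on a gene outside the gate. Adgre1, which encodes the F4/80 antigen, had a UMI in 78.6% to 88.5% of gated cells per skin library and in 73.1% to 84.8% per kidney library, against 9.32% and 1.91% of the cells of skin and kidney with no Ptprc UMI. Median depth of those cells was 858 to 5140.5 UMIs in skin and 7020 to 11538 UMIs in kidney. Ptprc, which encodes the leukocyte antigen CD45, had a UMI in 66.7% to 93.3% of gated skin cells and in 92.5% to 96.9% of gated kidney cells. Of the gate's own genes, C1qa measured 3019, 2528 and 1533 CPM in skin and 3371, 4441 and 6953 CPM in kidney. Csf1r measured 685, 622 and 458 CPM in skin against 406, 547 and 564 CPM in kidney. Near the threshold, 25, 5 and 17 gated skin cells and 6, 1 and 6 gated kidney cells had 5 to 7 C1q UMIs, and 35, 5 and 30 skin cells and 4, 3 and 39 kidney cells that met every other condition fell short with 2 to 4.

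Each gene's gated UMIs were summed per library and compared between tissues with the quasi-likelihood test of edgeR. The study describes its skin libraries as independent experiments, but no source used here says which mice each library held, so p-values measure the spread between libraries, which may be technical. Of 10714 genes tested, 3479 (32.5%) had an adjusted p below 0.05, 1815 higher in skin (16.9%) and 1664 higher in kidney (15.5%). These shares are the background for every list below, and the median log2 difference over all genes tested was -0.07 (skin minus kidney, as in all log2 values here). Values of the 3 libraries of a tissue lay apart from those of the other without overlap for 49.7% of genes, 24.2% higher in skin and 25.5% higher in kidney. The total was 2056 without the library labelled skin 1 and 2171 without kidney 2. Calls higher in skin numbered 1163 without kidney 2. Calls higher in kidney numbered 841 without the library labelled skin 1, 1006 without the library labelled skin 2, 1056 without kidney 1 and 1008 without kidney 2. Without the skin libraries labelled 1 and 3, 1 skin library remained and 269 genes passed, 240 higher in skin and 29 higher in kidney.

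A gated droplet can hold RNA of its neighbours, so each gene was also measured in the cells of the same library that had no Ptprc UMI, 500 to 1655 cells per skin library and 1723 to 8243 per kidney library. Of the genes called higher in skin, 378 (20.8%) were at least 2 times higher in gated cells than in these Ptprc-free cells in every skin library. Of those called higher in kidney, 213 (12.8%) met the same condition in every kidney library. Conversely, 1370 (75.5%) of the skin calls and 1134 (68.1%) of the kidney calls differed the same way between the Ptprc-free cells of the tissues without overlap, against 34.1% and 25.6% of all genes tested. The Ptprc-free cells were not free of macrophages, since 163, 28 and 24 of those in skin and 8, 23 and 70 of those in kidney were gated cells. Without these gated cells the counts of genes that differed the same way were 1340 and 1121, and 1316 and 1111 when every Ptprc-free cell with a C1q or Csf1r UMI was left out, both settings chosen after the data were seen.

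**Figure D1:**
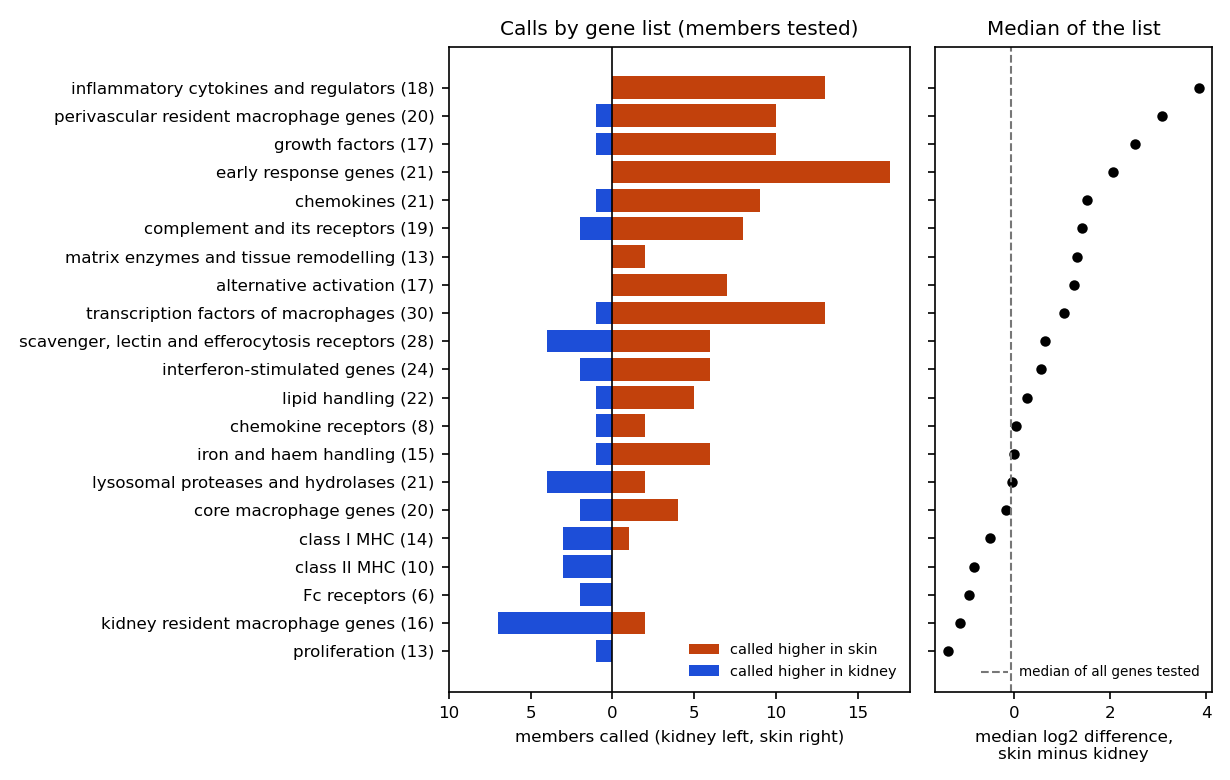
The left panel shows, as bars, the number of members of each gene list called higher in kidney (blue, to the left of 0) and in skin (red, to the right), with the number of members tested in brackets. The right panel shows each list's median log2 difference in CPM (skin minus kidney) as a point, where inflammatory regulators, perivascular macrophage genes and early response genes lie to the right of the dashed line at -0.07, the median of all genes tested, and kidney resident macrophage genes lie to its left.

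The 15 skin-higher genes chosen for the size of their difference, among those at least 2 times above the Ptprc-free cells, were led by Areg and included Cd209d, Il10, Hal and Cd163. Areg, which encodes the EGF receptor ligand amphiregulin (chr5:91139599-91148432 on GRCm38.p6), measured 84.3, 72.7 and 208 CPM in skin and 0, 0.318 and 0.0756 CPM in kidney. All skin libraries lay far above all kidney libraries, where 2 UMIs were counted in 1661 cells against 1692 UMIs in 1439 skin cells. The ratio of the pooled CPM was 1146, with a 95% exact interval of 317 to 9471 that covers counting error only. The log2 difference was 9.80 (SE 0.83, adjusted p = 0.000575, edgeR quasi-likelihood test).

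Cd163, the haemoglobin-haptoglobin scavenger receptor, measured 598, 473 and 283 CPM in skin and 11.0, 6.69 and 8.39 CPM in kidney. The means of 452 ± 159 and 8.68 ± 2.15 CPM (SD, n = 3 each) differed by 5.67 on the log2 scale (SE 0.38, adjusted p = 0.000368, edgeR). Cd209d, a C-type lectin of the DC-SIGN family, measured 874, 502 and 95.6 CPM in skin and 4.98, 0.637 and 1.13 CPM in kidney, with the library labelled skin 3 lowest among the skin libraries. Hal, which encodes histidine ammonia-lyase, showed the same order within skin (1543, 1455 and 424 CPM) above a kidney range of 2.99 to 32.6 CPM. Tfrc, the transferrin receptor through which cells take up iron, measured 455, 349 and 110 CPM in skin and 15.9, 7.96 and 4.76 CPM in kidney.

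Il10, which encodes the anti-inflammatory cytokine interleukin-10, measured 223, 475 and 757 CPM in skin and 2.49, 0 and 3.1 CPM in kidney (log2 difference 7.83, SE 0.97, adjusted p = 0.00202, edgeR). Il1rn, the secreted antagonist of the interleukin-1 receptor, measured 203, 527 and 693 CPM in skin and 3.98, 11.8 and 22.2 CPM in kidney. Both genes were highest in the library labelled skin 3, where Cd163 and Cd209d were lowest. Mmp19, a matrix metalloproteinase, followed the same order, from 90.0 to 328 CPM in skin, against 0.498 to 3.71 CPM in kidney. Tslp, a cytokine best known from epithelia that primes type 2 responses, measured 95.1, 111 and 18.0 CPM in skin and at most 1.13 CPM in kidney.

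The remaining skin-higher genes chosen by this rule were Maff, Cxcl2, Vps37b, Tnfaip3, Zfand2a and Adora2b. Vps37b, a subunit of the ESCRT-I sorting complex, varied little within each tissue, with 432, 359 and 360 CPM in skin and 11.0, 9.55 and 9.91 CPM in kidney (log2 difference 5.23, SE 0.27, adjusted p = 0.000368, edgeR). Zfand2a, an arsenite- and heat-inducible zinc finger gene, measured 146, 129 and 111 CPM in skin and 1.99 to 5.97 CPM in kidney. Adora2b, an adenosine receptor, measured 19.3, 27.5 and 126 CPM in skin and 1.27 to 2.65 CPM in kidney. All 15 skin-higher genes passed the test in each of the 6 fits with 1 library left out. In the Ptprc-free cells, 14 of the 15 were also higher in skin without overlap, at lower levels. That is 93.3%, against 75.5% of all genes called higher in skin. Among Ptprc-free cells with no C1q or Csf1r UMI, 12 of the 15 (80%) were, against 72.5% of all skin calls. The 15 were chosen at least 2 times above Ptprc-free cells, and most skin calls were not, so these shares are not like for like.

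**Figure D2:**
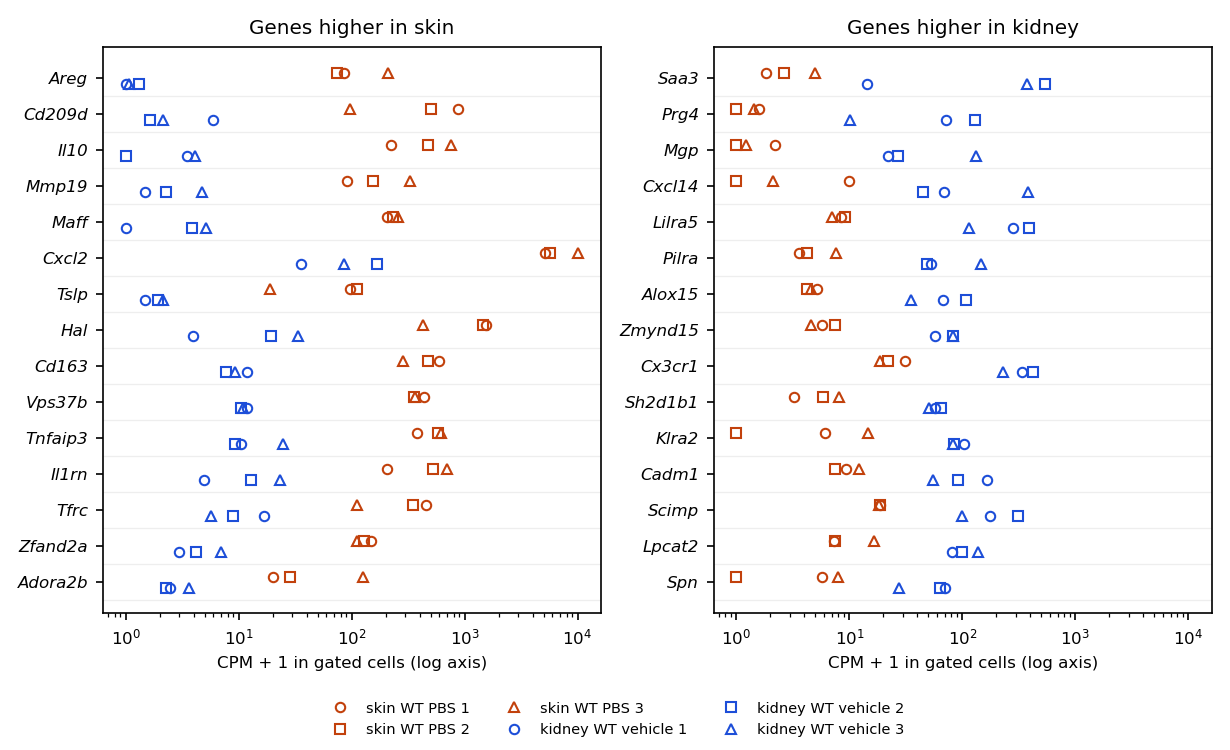
CPM plus 1 in gated cells of each library (log axis) for the named genes, 15 higher in skin (left panel) and 15 higher in kidney (right panel), with 1 point per library, its colour the tissue and its shape the replicate. Points of the 2 tissues do not overlap for any of the 30 genes, as their choice required, and the skin libraries of Cd209d span 95.6 to 874 CPM.

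Genes known from perivascular resident macrophages were called higher in skin more often than in kidney. Of 20 members, all tested, 10 were higher in skin and 1 in kidney, with a median log2 difference of 3.07 against -0.07 over all genes. All 10 passed in each fit with 1 library left out, and 4 passed without the skin libraries labelled 1 and 3. The median was 1.41 with 7 skin calls when the gene list was a covariate, and 1.45 with 4 skin calls with libraries of the shorter gene list only, which leave 1 skin library. Mrc1, the mannose receptor CD206, measured 3378, 2627 and 1822 CPM in skin and 285, 209 and 395 CPM in kidney (log2 difference 3.08, SE 0.39, adjusted p = 0.0022, edgeR). F13a1, the A subunit of coagulation factor XIII, measured 2458, 1707 and 827 CPM in skin and 47.5 to 77.1 CPM in kidney. Folr2, folate receptor beta, measured 655, 393 and 138 CPM in skin and 25.2 to 51.1 CPM in kidney.

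Cbr2, a carbonyl reductase, differed by 4.51 (SE 0.41) and Pf4, the chemokine CXCL4, by 3.15 (SE 0.45) on the log2 scale. The growth factors Igf1 and Gas6, the latter a bridge between dying cells and TAM receptors, were higher by 3.06 (SE 0.70) and 2.52 (SE 0.51). All 4 of these genes had adjusted p values below 0.05 and no overlap between tissues. Lyve1, the hyaluronan receptor that names a subset of such macrophages, measured 174, 19.4 and 22.0 CPM in skin and 29.4, 17.2 and 26.2 CPM in kidney (adjusted p = 0.155, edgeR). Ccl8, a chemokine of monocytes and type 2 lymphocytes, measured 9611, 8943 and 2224 CPM in skin and 22.4, 22.0 and 2556 CPM in kidney (adjusted p = 0.232, edgeR). Kidney 3 lay within the skin range. Slc40a1, the iron exporter ferroportin, was the member called higher in kidney, at 14.9, 23.2 and 5.29 CPM against at most 3.32 CPM in skin. In Ptprc-free kidney cells it measured 25.8, 59.1 and 31.1 CPM, above the gated cells of each kidney library, and 0 members were called in kidney with free RNA subtracted. Its call was lost without the library labelled skin 2, skin 3, kidney 1 or kidney 2 (adjusted p = 0.0821, 0.0758, 0.0673 and 0.105, edgeR). In Ptprc-free cells 7 of the 10 skin-called members (70%) were also higher in skin without overlap, against 75.5% of all genes called higher in skin. Of the 10, 9 stood at least 2 times higher in gated cells in every skin library, against 20.8% of all skin calls.

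Genes of alternative activation, the state that interleukin-4 and interleukin-13 induce, gave 7 skin-higher and 0 kidney-higher calls among 17 tested (median log2 difference 1.25). Clec10a, the galactose-type lectin CD301, measured 1091, 825 and 182 CPM in skin and 58.7, 30.3 and 61.9 CPM in kidney. Irf4, a transcription factor of this state, measured 115, 136 and 69.8 CPM in skin and 6.47, 5.73 and 4.01 CPM in kidney (log2 difference 4.32, SE 0.32, adjusted p = 0.000487, edgeR). Of the 7 calls, 6 held in each fit with 1 library left out, and 2 passed without the skin libraries labelled 1 and 3. Without kidney 1, 1 member was higher in kidney. Retnla, which encodes RELM-alpha, lost its call without the library labelled skin 1, skin 2, skin 3 or kidney 1 (adjusted p = 0.0922, 0.0779, 0.0693 and 0.0917, edgeR). Arg1, arginase 1, measured 0.592, 0 and 3.33 CPM in skin and 0.995, 6.05 and 228 CPM in kidney (adjusted p = 0.0571, edgeR), with kidney 3 far above the others.

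Iron handling and scavenging were described from 15 and 28 tested members. Among iron genes, 6 were higher in skin and 1 in kidney (median log2 difference 0.00). Hmox1, the haem oxygenase that frees iron from haem, measured 1277, 1741 and 529 CPM in skin and 71.7, 79.6 and 189 CPM in kidney (log2 difference 3.27, SE 0.59, adjusted p = 0.00617, edgeR). Slc11a2, the iron transporter DMT1, measured 122, 141 and 138 CPM in skin and 20.4, 17.8 and 14.4 CPM in kidney. The ferritin subunits Fth1 (7189 to 11473 CPM in skin, 11272 to 14228 CPM in kidney) and Ftl1 (7236 to 9672 and 7003 to 9697 CPM) overlapped. The kidney call was that of Slc40a1, described above. The skin count was 4 without the library labelled skin 2, kidney 1 or kidney 2, and 3 without the skin libraries labelled 1 and 3. Among scavenger, lectin and efferocytosis receptors, 6 were higher in skin and 4 in kidney (35.7%, against 32.5% of all genes, with a median log2 difference of 0.64). Besides Mrc1, Cd163 and Clec10a, the skin calls that held in each fit with 1 library left out included Clec4a1, which measured 385, 355 and 280 CPM against 107 to 117 CPM in kidney. Axl, a TAM receptor that binds Gas6, and Siglece, an inhibitory sialic acid receptor, were higher in kidney in each such fit. Axl measured 31.0, 24.2 and 33.6 CPM in skin and 122, 111 and 194 CPM in kidney. The scavenger count in skin was 10 without the library labelled skin 3 or kidney 3 and 4 without kidney 2, and that in kidney was 2 without the library labelled skin 1, skin 2 or kidney 2.

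Inflammatory cytokines and their regulators formed the list with the highest median among the macrophage programmes. Of 20 members 18 were tested, and 13 were higher in skin and 0 in kidney, with a median log2 difference of 3.86. The 13 calls held in each fit with 1 library left out, and 8 passed without the skin libraries labelled 1 and 3. In the Ptprc-free cells all 13 were higher in skin without overlap, against 75.5% of all genes called higher in skin. Of the 13, 7 (53.8%) stood at least 2 times higher in gated cells than in Ptprc-free cells of every skin library. That share was 20.8% over all skin calls. With the estimated free RNA subtracted the count was again 13.

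NF-kB is a transcription factor that signals of infection and injury release into the nucleus, and it drives both cytokine genes and its own inhibitors. The promoters of 4 skin-higher genes with a match to its kappaB motif are shown because each gene was called higher in skin and holds the motif, each as the 250 bases before the RefSeq start site on GRCm38.p6, with the match in capitals. They lie at chr5:90890995-90891244 (Cxcl1, plus strand), chr5:90903649-90903898 (Cxcl2, plus strand), chr5:30012864-30013113 (Il6, plus strand) and chr12:55492648-55492897 (Nfkbia, minus strand). The motif searched on both strands was GGGA, any base, then TTTCC. It was chosen after the values were seen.
Cxcl1: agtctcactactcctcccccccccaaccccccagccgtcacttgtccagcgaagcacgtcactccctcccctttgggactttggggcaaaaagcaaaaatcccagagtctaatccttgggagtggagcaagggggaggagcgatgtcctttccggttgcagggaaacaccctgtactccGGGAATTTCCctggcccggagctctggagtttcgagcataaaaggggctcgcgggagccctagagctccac
Cxcl2: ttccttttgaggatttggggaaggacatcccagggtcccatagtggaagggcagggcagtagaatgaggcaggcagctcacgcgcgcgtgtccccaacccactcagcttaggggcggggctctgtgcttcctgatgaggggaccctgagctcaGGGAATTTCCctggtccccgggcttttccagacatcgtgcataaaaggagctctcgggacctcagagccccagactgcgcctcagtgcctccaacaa
Il6: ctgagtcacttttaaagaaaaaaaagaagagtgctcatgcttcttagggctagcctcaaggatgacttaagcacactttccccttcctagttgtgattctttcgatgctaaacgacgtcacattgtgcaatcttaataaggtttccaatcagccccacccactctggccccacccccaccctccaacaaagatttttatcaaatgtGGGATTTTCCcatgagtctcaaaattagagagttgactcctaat
Nfkbia: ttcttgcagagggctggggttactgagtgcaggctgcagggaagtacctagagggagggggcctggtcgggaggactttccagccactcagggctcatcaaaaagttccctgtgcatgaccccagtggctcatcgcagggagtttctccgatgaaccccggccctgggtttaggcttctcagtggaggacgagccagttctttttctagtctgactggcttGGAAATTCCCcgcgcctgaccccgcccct

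The match started 71, 97, 44 and 29 bases before the start site in these 4 genes. Counting any listed start of a gene, the motif occurred in 0.414% of 27025 mouse genes with a promoter in the table and in 0.496% of the 8465 of these that were tested. Among the genes called higher in skin, 8 of the 13 inflammatory members had a promoter in the table and 2 of the 8 held the motif, and 5 of the 9 chemokines had one and 2 of the 5 held it. A match describes letters in a window and shows no binding.

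Tnf, the cytokine tumour necrosis factor, measured 371, 396 and 457 CPM in skin and 9.95, 19.1 and 13.8 CPM in kidney (log2 difference 4.82, SE 0.35, adjusted p = 0.000473, edgeR). Il6, an acute-phase cytokine, measured 49.3, 43.6 and 122 CPM in skin and 0, 0.318 and 0.756 CPM in kidney. Ptgs2, the inducible prostaglandin synthase COX-2, measured 131, 158 and 832 CPM in skin and 0.498, 1.59 and 1.21 CPM in kidney. The library labelled skin 3 was highest for all 3 genes, and no kidney library reached the lowest skin library. Nlrp3, the sensor of an inflammasome, measured 276, 444 and 504 CPM in skin and 16.3 to 29.9 CPM in kidney. The inhibitors were higher beside the cytokines. Nfkbia, which encodes IkB-alpha, measured 1696, 1929 and 2236 CPM in skin against 102, 164 and 445 CPM in kidney (log2 difference 2.97, SE 0.62, adjusted p = 0.01, edgeR). Tnfaip3, the ubiquitin-editing inhibitor A20, measured 383, 578 and 624 CPM in skin and 9.46, 8.28 and 23.7 CPM in kidney. Il1b, interleukin-1 beta, did not separate the tissues, at 328, 1318 and 3218 CPM in skin and 444, 522 and 34.0 CPM in kidney (adjusted p = 0.108, edgeR).

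Chemokines, which recruit leukocytes, gave 9 skin-higher calls and 1 kidney-higher call among 21 tested (median log2 difference 1.51). Cxcl2, a neutrophil attractant, measured 5163, 5709 and 10196 CPM in skin and 34.8, 167 and 85.0 CPM in kidney (log2 difference 6.23, SE 0.71, adjusted p = 0.00139, edgeR). Its neighbour Cxcl1 measured 1440, 1491 and 3006 CPM in skin and 0.995, 3.82 and 9.53 CPM in kidney. In Ptprc-free cells Cxcl2 measured 479, 1583 and 790 CPM in skin and 0.110, 1.50 and 27.5 CPM in kidney, so that the tissues differed there too at lower levels. Ccl24, Cxcl10 and Pf4 completed the 5 chemokines that held in each fit with 1 library left out. The skin count was 5 without the library labelled skin 2, and 2 without the skin libraries labelled 1 and 3, and the kidney count was 0 without the library labelled skin 2 and 2 without kidney 1. Ccl2, which recruits monocytes, measured 1231, 1777 and 1062 CPM in skin and 27.4, 31.5 and 265 CPM in kidney, and lost its call without the library labelled skin 1, skin 2, skin 3 or kidney 2 (adjusted p = 0.0628, 0.0746, 0.0523 and 0.0627, edgeR). Among chemokine receptors, Cxcr4 (287, 299 and 337 CPM against 15.8 to 23.6 CPM) and Ccrl2 were higher in skin, Cx3cr1 was higher in kidney, and the other 5 tested did not pass. The receptor calls were 37.5% of those tested, against 32.5% of all genes. Without kidney 3, 4 receptors were higher in skin.

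Early response genes, which cells switch on rapidly after a stimulus, were higher in skin for 17 of 21 tested and in kidney for 0 (median log2 difference 2.05). Junb, a subunit of AP-1, measured 5171, 3930 and 2457 CPM in skin and 226, 454 and 363 CPM in kidney (log2 difference 3.43, SE 0.40, adjusted p = 0.00157, edgeR). Hspa1a, the inducible heat shock protein HSP70, measured 2151, 2145 and 1101 CPM in skin and 21.4, 148 and 6.05 CPM in kidney. Ier3, an early response gene that NF-kB induces, measured 1613, 1233 and 2781 CPM in skin and 24.8 to 69.1 CPM in kidney. Jun did not pass, at 344 to 953 CPM in skin and 316 to 1209 CPM in kidney. Of the 17, 13 held in each fit with 1 library left out, and 6 passed without the skin libraries labelled 1 and 3. Leaving out kidney 3 gave 1 member higher in kidney.

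In Ptprc-free cells 15 of the 17 (88.2%) were also higher in skin without overlap, against 75.5% of all genes called higher in skin. Of the 17, 0 stood at least 2 times higher in gated cells than in Ptprc-free cells of every skin library. That share was 20.8% over all skin calls. Junb measured 2422, 2681 and 1548 CPM in Ptprc-free skin cells and 22.6, 32.4 and 314 CPM in Ptprc-free kidney cells. Hspa1a measured 1097, 728 and 822 CPM against 19.4, 30.9 and 34.0 CPM there.

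**Figure D3:**
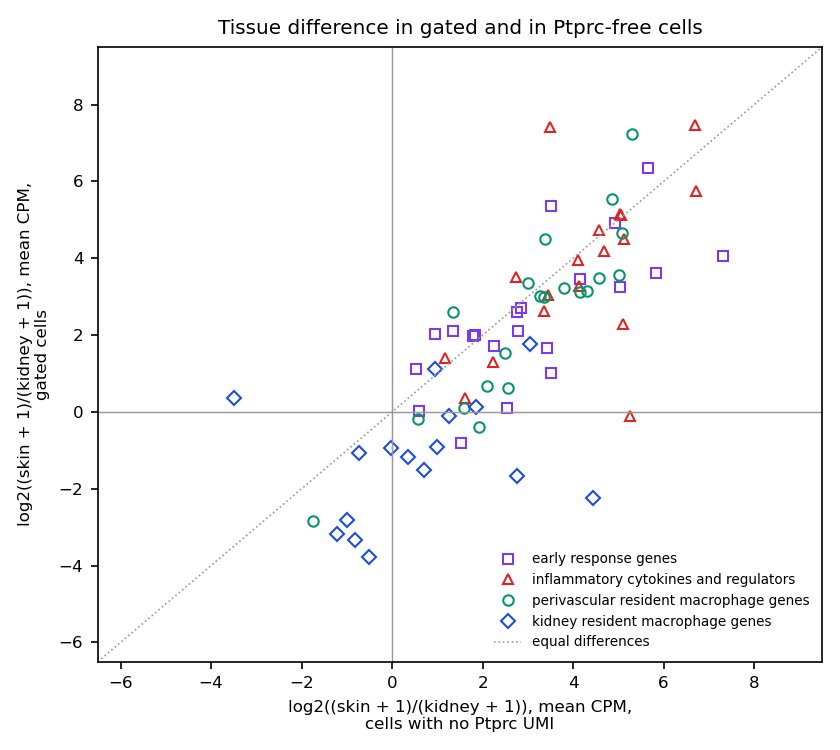
Each point is 1 gene of 4 lists, with the log2 ratio of mean CPM plus 1 in skin to that in kidney among cells without a Ptprc UMI on the horizontal axis and among gated cells on the vertical axis, and the dotted line marks equal differences. Most early response genes lie above 0 on both axes, whereas the kidney resident macrophage genes that lie below 0 in gated cells fall on both sides of 0 in Ptprc-free cells.

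Growth factors gave 10 skin-higher calls and 1 kidney-higher call among 17 tested (median log2 difference 2.52). Besides Areg, Igf1 and Gas6, Hbegf, another EGF receptor ligand, measured 318, 255 and 180 CPM in skin and 9.46, 3.50 and 3.33 CPM in kidney (log2 difference 5.63, SE 0.45, adjusted p = 0.000575, edgeR). Gdf15, a stress-induced member of the TGF-beta family, measured 236, 464 and 170 CPM in skin and 4.98, 6.37 and 5.52 CPM in kidney. Tgfb1 itself measured 250 to 275 CPM in skin and 130 to 176 CPM in kidney, without overlap, and did not pass (adjusted p = 0.0602, edgeR). Pdgfb, a ligand of the receptor whose promoter drives the Cre of these mice, was the member higher in kidney (74.7, 87.6 and 23 CPM against 14.5 to 23 CPM in skin), in no fit that left out a library other than kidney 3. Skin calls numbered 6 without the library labelled skin 1, and 3 without those labelled 1 and 3.

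Areg and Maff were among the skin-higher genes that carried a cAMP response element, the sequence bound by CREB, close to a RefSeq start site. The motif searched was TGACGTCA, which reads the same on both strands, and it was chosen after the values were seen. The promoters shown lie at chr5:91139349-91139598 (Areg, plus strand) and chr15:79347270-79347519 (Maff, plus strand), with the match in capitals.
Areg: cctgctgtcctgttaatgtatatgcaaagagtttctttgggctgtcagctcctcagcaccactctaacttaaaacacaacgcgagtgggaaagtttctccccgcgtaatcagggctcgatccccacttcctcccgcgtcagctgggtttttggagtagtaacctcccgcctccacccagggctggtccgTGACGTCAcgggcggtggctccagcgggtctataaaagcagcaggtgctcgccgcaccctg
Maff: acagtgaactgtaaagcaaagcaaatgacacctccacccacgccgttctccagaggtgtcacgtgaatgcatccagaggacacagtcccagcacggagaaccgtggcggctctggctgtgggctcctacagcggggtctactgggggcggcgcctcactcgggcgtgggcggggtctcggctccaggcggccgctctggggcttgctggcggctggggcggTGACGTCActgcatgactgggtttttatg

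The match started 61 and 29 bases before the start site. For Maff this is a RefSeq start inside the gene, which the gene annotation places at chr15:79346621-79359076. Counting any listed start of a gene, the motif occurred in 1.77% of 27025 genes with a promoter in the table and in 3.15% of the 8465 of these that were tested. Of the 15 skin-higher genes chosen by rule, 11 had a promoter in the table and 3 held this motif, Zfand2a being the third, while 1 held the kappaB motif. Maff, a small MAF transcription factor, measured 204, 231 and 257 CPM in skin and 0, 2.87 and 4.16 CPM in kidney. Of the 15 kidney-higher genes 9 had a promoter in the table, and 0 held either motif. Of 15 early response genes higher in skin with a promoter in the table, 0 held the kappaB motif and 1 the cAMP response element, which 0 of the 5 chemokines and 1 of the 8 inflammatory members held. A heat shock element, searched as GAA, any 2 bases, TTC, any 2 bases, then GAA, occurred in 0 promoters of any of these sets and in 0.473% of the tested genes.

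The 15 kidney-higher genes chosen by the same rule included Cx3cr1, Lilra5, Saa3 and Alox15. Cx3cr1, the fractalkine receptor (chromosome 9), measured 30.1, 21.0 and 17.8 CPM in skin and 333, 418 and 227 CPM in kidney. The difference of -3.80 on the log2 scale (SE 0.31, adjusted p = 0.000575, edgeR) was 14.2-fold in the means, 326 ± 95.8 against 23 ± 6.38 CPM (SD, n = 3 each). Lilra5, an activating leukocyte receptor, measured 7.34, 8.08 and 6.0 CPM in skin and 280, 385 and 114 CPM in kidney (log2 difference -5.18, SE 0.45, adjusted p = 0.000577, edgeR). Pilra, a paired immunoglobulin-like receptor, Klra2, a Ly49 lectin, Spn, the sialophorin CD43, and the adaptor Scimp were also higher in kidney, by 3.34 to 4.28 on the log2 scale.

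Several of these genes differed widely between the kidney libraries. Saa3, an acute-phase serum amyloid, measured 0.829, 1.62 and 4.0 CPM in skin and 13.4, 532 and 374 CPM in kidney. Prg4, the lubricant proteoglycan lubricin, measured at most 0.592 CPM in skin and 71.2, 129 and 9.15 CPM in kidney. Cxcl14, a chemokine, measured 8.88, 0 and 1.11 CPM in skin and 68.2, 44.0 and 378 CPM in kidney, and lost its call without the library labelled skin 2 (adjusted p = 0.0509, edgeR). Alox15, the 12/15-lipoxygenase, was steadier, at 4.14, 3.23 and 3.56 CPM in skin and 66.7, 107 and 34.3 CPM in kidney (log2 difference -4.14, SE 0.44, adjusted p = 0.00102, edgeR). Apart from Cxcl14, the kidney-higher genes of this rule passed in each fit with 1 library left out. None of the 15 was higher in kidney without overlap in Ptprc-free cells, against 68.1% of all genes called higher in kidney. The rule that chose the 15 required levels at least 2 times above Ptprc-free cells, which most kidney calls did not meet. That choice itself favours low Ptprc-free levels, so the contrast says nothing further about these genes. With the gene list as a covariate 7 of these 15 lost the call, Saa3, Prg4, Mgp, Cxcl14, Pilra, Klra2 and Spn.

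The list of kidney resident macrophage genes, 16 members all tested, had 7 higher in kidney and 2 higher in skin, with a median log2 difference of -1.13. Cd72, an inhibitory lectin, measured 53.6, 16.2 and 48.2 CPM in skin and 421, 547 and 247 CPM in kidney. Fcgr4, an activating Fc receptor for IgG, measured 31.7, 14.5 and 30.2 CPM in skin and 162, 201 and 188 CPM in kidney. These genes, Cx3cr1 and Axl held in each fit with 1 library left out, and their skin and kidney values did not overlap. Cd81, a tetraspanin, measured 475, 527 and 302 CPM in skin and 892, 1071 and 956 CPM in kidney and lost its call without the library labelled skin 1 (adjusted p = 0.0586, edgeR). C3ar1, the receptor of complement fragment C3a, went the other way, at 446, 523 and 347 CPM in skin against 109, 124 and 149 CPM in kidney. The other skin-higher member, the phagocytosis checkpoint receptor Sirpa, lost its call in each fit with 1 library left out except that without kidney 3. The call of Itgax, the integrin CD11c, was lost without the library labelled skin 1, skin 2, kidney 1 or kidney 3 (adjusted p from 0.0609 to 0.135, edgeR). Apoe, apolipoprotein E, measured 4795 to 10387 CPM in skin and 7024 to 26316 CPM in kidney and did not pass (adjusted p = 0.21, edgeR). Without the skin libraries labelled 1 and 3, 3 members passed, all in kidney. In Ptprc-free cells 0 of the 7 kidney calls was higher in kidney without overlap, against 68.1% of all genes called higher in kidney. All 7 stood at least 2 times higher in gated cells, against 12.8% of all kidney calls.

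Class II MHC genes, which present antigen to helper T cells, gave 3 kidney-higher calls and 0 skin-higher calls among 10 tested. That is 30%, against 32.5% of all genes, with a median log2 difference of -0.84. The median turned to 0.33, with 1 kidney-higher call, under a gate on Csf1r and Adgre1 without C1q. Ciita, the master activator of the class, measured 31.0, 67.8 and 29.3 CPM in skin and 241, 199 and 69.6 CPM in kidney. Cd74, the invariant chain, measured 14201, 20304 and 14075 CPM in skin and 27846, 31108 and 30144 CPM in kidney. The alpha chain H2-Aa did not pass, at 7209, 12230 and 5953 CPM in skin and 8917 to 9402 CPM in kidney (adjusted p = 0.794, edgeR). A count of 1 remained without the library labelled skin 1 or skin 3. Cd74 lost its call in each of the 6 fits with 1 library left out (adjusted p from 0.0551 to 0.163, edgeR), and Ciita lost it without the library labelled skin 1 or skin 3 (adjusted p = 0.0714 and 0.0559, edgeR). With estimated free RNA subtracted, 7 of 9 tested were higher in kidney, and without the skin libraries labelled 1 and 3, or with the gene list as a covariate, 0 passed.

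Of 14 class I genes tested, 3 were higher in kidney and 1 in skin (28.6%, against 32.5% of all genes). The 3 were the immunoproteasome subunits Psmb8, Psmb9 and Psmb10, which cut proteins into the peptides that class I molecules carry. Psmb8 measured 142, 157 and 126 CPM in skin and 385, 448 and 600 CPM in kidney (log2 difference -1.79, SE 0.30, adjusted p = 0.00479, edgeR) and held in each fit with 1 library left out. Psmb9 and Psmb10 lost their calls without the library labelled skin 1 (adjusted p = 0.063 and 0.119, edgeR) or skin 2 (0.0597 and 0.108), and Psmb9 without the library labelled skin 3 (0.0523). The skin count was 0 without the library labelled skin 1, skin 2, kidney 1 or kidney 2 and 2 without kidney 3. The class I heavy chain genes H2-K1 and H2-D1 overlapped between tissues. Of 6 Fc receptor genes, which bind antibodies, Fcgr4 and Fcgr1 were higher in kidney (33.3%, against 32.5% of all genes). Fcgr1 lost its call without the library labelled skin 1, skin 2 or skin 3 (adjusted p = 0.112, 0.131 and 0.0645, edgeR). Without kidney 3, 1 Fc receptor gene was higher in skin.

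Lysosomal genes were called about as often as all genes, with 4 higher in kidney and 2 in skin among 21 tested (28.6%, against 32.5% of all genes). Man2b1, an alpha-mannosidase (164, 110 and 102 CPM in skin against 288, 373 and 362 CPM in kidney), held in each fit with 1 library left out. Cst3, the protease inhibitor cystatin C, measured 2693, 2178 and 1433 CPM in skin and 6411, 10268 and 4094 CPM in kidney and lost its call without the library labelled skin 2 (adjusted p = 0.0509, edgeR). Skin calls numbered 0 without any 1 of the libraries labelled skin 1, skin 2, skin 3, kidney 1 or kidney 2, and 7 without kidney 3, and the kidney count was 2 without the library labelled skin 2. Ctsb, cathepsin B, was 1 of the genes that depended on these libraries, at 4767, 4644 and 3106 CPM in skin and 678, 857 and 1994 CPM in kidney.

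Transcription factors of macrophages were higher in skin for 13 of 30 tested and in kidney for 1 (median log2 difference 1.04). Nr4a2, an orphan nuclear receptor induced early, measured 211, 136 and 192 CPM in skin and 0.498, 0.318 and 1.29 CPM in kidney (log2 difference 7.52, SE 0.51, adjusted p = 0.000368, edgeR). Klf4, a Krüppel-like factor, measured 1613, 855 and 846 CPM in skin and 40.8, 33.1 and 188 CPM in kidney. Spic, a factor of macrophages that recycle red cells, measured 20.1, 59.8 and 34.7 CPM in skin and 2.42 to 7.47 CPM in kidney. These genes, Irf4, Nr4a1, Id2, Zeb2 and Egr2 held in each fit with 1 library left out. Skin calls numbered 8 without the library labelled skin 1, kidney 1 or kidney 2, and 3 without the skin libraries labelled 1 and 3. Maf, which helps to specify macrophage identity, was also called higher in skin, by 1.74 on the log2 scale, and lost the call without the library labelled skin 1, skin 2, kidney 1 or kidney 2 (adjusted p from 0.0513 to 0.0592, edgeR).

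Interferon-stimulated genes gave 6 skin-higher and 2 kidney-higher calls among 24 tested (median log2 difference 0.55, and -0.03 with cells thinned before the gate), of which Isg15, Ifit1, Rsad2 and Cxcl10 held in each fit with 1 library left out. The interferon list was called about as often as all genes (33.3%, against 32.5%). Rsad2, the antiviral enzyme viperin, measured 85.3, 226 and 83.8 CPM in skin and 8.46, 17.5 and 10.7 CPM in kidney. Irf7, a regulator of the same response, did not pass. Without kidney 2 the skin count was 4, and the kidney count was 0 or 1 in all 6 fits with 1 library left out. Of lipid handling genes, 5 of 22 were higher in skin and 1 in kidney (27.3%, against 32.5% of all genes). Abca1, the cholesterol exporter, measured 458, 588 and 591 CPM in skin and 23.4, 40.1 and 71.7 CPM in kidney (log2 difference 3.53, SE 0.50, adjusted p = 0.0028, edgeR). Trem2 and Spp1, known from lipid-laden macrophages, did not pass and reached 302 and 1334 CPM in gated cells of kidney 3, where Ptprc-free cells held 26.7 and 7415 CPM of them. The lipid count in skin was 3 without the library labelled skin 1 or kidney 2 and 8 without kidney 3, and that in kidney was 2, 4 and 3 without the library labelled skin 3, kidney 1 and kidney 2.

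Complement genes gave 8 skin-higher and 2 kidney-higher calls among 19 tested (median log2 difference 1.41). The skin count was 3 without the library labelled skin 1 or skin 2, 4 without kidney 1 or kidney 2 and 0 without the skin libraries labelled 1 and 3, while the kidney count was 0 or 1 in 4 of the 6 fits with 1 library left out. C3ar1, C5ar2, the second receptor of C5a, and Cfd, which encodes factor D, held in each of them. C5ar2 measured 58.4, 24.2 and 25.3 CPM in skin and 7.47, 9.55 and 10.4 CPM in kidney. Matrix enzymes were called less often than all genes (15.4%, against 32.5%). They were higher in skin for 2 of 13 tested, Mmp19 and Plau, the urokinase plasminogen activator, and both held in each fit with 1 library left out. Plau measured 227, 242 and 116 CPM in skin and 23.4, 22.3 and 11.6 CPM in kidney. Without kidney 3 the matrix count in skin was 6. Proliferation genes gave 1 kidney-higher call among 13 tested (7.69%, against 32.5% of all genes), Tyms, which was lost without any 1 of the skin libraries. Without kidney 1, 4 proliferation genes were higher in kidney, while Mki67 overlapped (19.9 to 70.4 CPM in skin, 20.4 to 64.2 CPM in kidney).

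Genes shared by macrophages of most organs were called about as often as all genes. Of 20 core macrophage genes tested, 4 were higher in skin and 2 in kidney (30%, against 32.5% of all genes, with a median log2 difference of -0.16). The kidney count was 7 with DESeq2, with doublets left out or with free RNA subtracted, 9 with cells thinned before the gate and 6 with a replicate block. Of the 6 calls, 0 held in each fit with 1 library left out. Cd68, a lysosomal glycoprotein, measured 374, 389 and 397 CPM in skin and 293, 332 and 537 CPM in kidney (adjusted p = 0.939, edgeR). Adgre1 measured 523, 483 and 285 CPM in skin and 211, 294 and 281 CPM in kidney (adjusted p = 0.111, edgeR). Mertk, the TAM receptor of efferocytosis, measured 48.3, 37.2 and 15.1 CPM in skin and 7.96, 8.92 and 68.9 CPM in kidney. The skin count was 0 without the library labelled skin 2 or kidney 1, 1 without the library labelled skin 1 or kidney 2 and 2 without the library labelled skin 3, and the kidney count was 0 without the library labelled skin 1 or skin 2, and 1 without the library labelled skin 3 or kidney 2.

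The gene list used for counting differed within skin, and all kidney libraries had the shorter one. With that list as a covariate, skin calls numbered 5 of 17 growth factors, 2 of 19 complement genes, 7 of 30 transcription factors, 5 of 21 chemokines and 11 of 21 early response genes. The medians were 0.69 for complement genes, 0.65 for transcription factors and 0.01 for scavenger, lectin and efferocytosis receptors. The inflammatory list gave 13 calls in this fit, with a median of 4.14.

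Markers of other cell types moved with the tissues. Kidney tubule markers were higher in kidney for all 17 tested, with a summed level of 330, 355 and 112 CPM in skin and 23634, 8621 and 2095 CPM in kidney, and 12 of the 20 markers were at 0 in all skin libraries. Skeletal muscle markers were higher in skin for all 7 tested, summing to 256, 142 and 201 CPM against 3.48, 2.87 and 5.67 CPM. Stroma markers were higher in skin for 6 of 9 tested and in kidney for 1, summing to 1167, 355 and 460 CPM and 193, 184 and 331 CPM. Keratinocyte markers were higher in skin for 4 of 5 tested, summing to 303, 30.7 and 284 CPM and 20.4, 16.6 and 8.62 CPM, and their skin count was 11 without the library labelled skin 2, 9 without kidney 1 and 8 without kidney 2 or kidney 3.

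B cell markers were higher in kidney for 3 of 5 tested (292, 233 and 87.8 CPM against 1489, 3742 and 1440 CPM), mostly through Igkc, an immunoglobulin light chain. Of dendritic cell markers 0 were higher in skin and 2 in kidney among 9 tested (22.2%, against 32.5% of all genes). A UMI of Flt3, Cd209a, Cd207 or Ccr7 was held by 59.2%, 32.1% and 31.7% of gated skin cells. In gated kidney cells these shares were 14.6%, 3.18% and 5.17%. Cd207 is counted here among the Langerhans cell markers, and Cd209a is also a gene of dermal macrophages. Of the calls in the Langerhans, monocyte and T and NK cell lists, that of Nr4a1, a monocyte marker here and a transcription factor above, was the only 1 that held in each fit with 1 library left out. Of Langerhans cell markers 1 of 7 was higher in skin (14.3%), and of monocyte markers 2 of 13 in skin and 1 in kidney (23.1%). Of T and NK cell markers 1 of 3 was higher in skin (33.3%). Endothelial markers gave 2 kidney-higher calls among 6 tested (33.3%). Neutrophil, mast cell and erythroid markers gave 0 calls, with 4 neutrophil calls in kidney without the library labelled skin 3, and the erythroid sum reached 5513 CPM in kidney 2 against at most 7.70 CPM elsewhere. The part of these cells in the differences above was not tested beyond settings with free RNA subtracted or with some gated cells left out. Without gated cells holding a UMI of Flt3, Cd209a, Cd207 or Ccr7, 3252 genes passed.

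**Figure D4:**
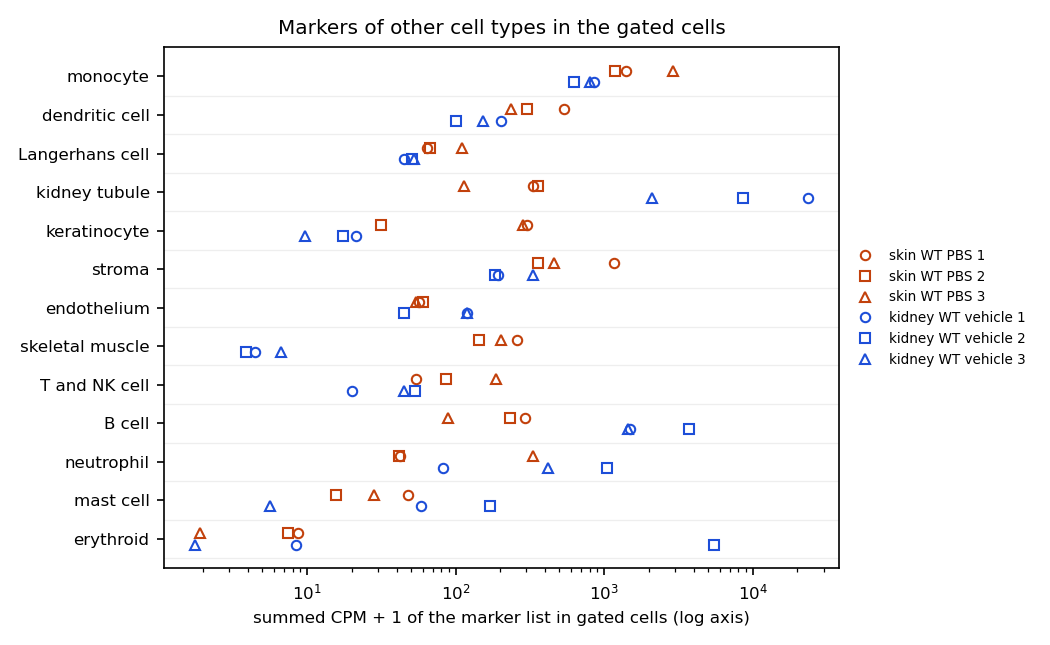
Summed CPM plus 1 of the marker genes of other cell types in the gated cells of each library (log axis), with 1 point per library, its colour the tissue and its shape the replicate. Tubule markers sum to 2095 to 23634 CPM in kidney against 112 to 355 CPM in skin, and muscle markers to 142 to 256 CPM in skin against at most 5.67 CPM in kidney.

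Shares of cells gave the same contrast on another scale. Each gated cell of at least 1000 UMIs was thinned to 1000 UMIs, which left out 8, 3 and 1 skin cells and 0 kidney cells, and the share with a UMI of a marker was averaged over the 3 libraries of a tissue. Mrc1 was found in 84.2 ± 10.2% of skin cells and 25.8 ± 9.23% of kidney cells, and Cd163 in 31.0 ± 11.0% and 0.848 ± 0.272% (SD, n = 3). Cx3cr1 was found in 2.54 ± 0.0865% of skin cells and 30.0 ± 8.83% of kidney cells, and Cd81 in 30.9 ± 7.26% and 64.4 ± 6.85%. Unthinned, 98.7% of skin cells and 70.7% of kidney cells had a UMI of Mrc1, and 7.98% and 79.7% one of Cx3cr1. Of the Ptprc-free cells, 473, 281 and 167 in skin and 159, 60 and 39 in kidney had fewer UMIs and were left out, so that 219 of 500 were used in the library labelled skin 2. In the other thinned Ptprc-free cells the shares were 13.7% and 0.708% for Mrc1, 5.50% and 0.0243% for Cd163, 0.527% and 0.542% for Cx3cr1, and 29.7% and 23.4% for Cd81. The Cd81 share of Ptprc-free skin cells thus lay close to that of gated skin cells. Unthinned, a Cd81 UMI was held by 80.4% and 98.1% of gated cells and by 49.9% and 74.2% of Ptprc-free cells. Unthinned shares of gated cells were 58.7% and 6.43% for Folr2, 52.3% and 4.39% for Cd163, and 36.1% and 4.61% for Cd209a.

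Folr2, Retnla and Cd209a, a C-type lectin of dermal dendritic cells and macrophages, were also found in larger shares of skin cells in every library. Among thinned Ptprc-free cells of skin and kidney the shares were 3.89% and 0.15% for Folr2, 9.14% and 0.279% for Retnla, 4.43% and 0.0837% for Cd209a, and 23.9% and 8.24% for H2-Aa. The 7 markers that separated the tissues without overlap had an exact two-sided permutation p of 0.1, the smallest that 3 against 3 libraries allow, and an adjusted p of 0.257 over the 18 markers. The other 11 overlapped. H2-Aa was found in 91.8 ± 6.10% of thinned skin cells and 95.1 ± 3.65% of kidney cells, and 78.4%, 88.9% and 64.1% of skin cells held UMIs of both Mrc1 and H2-Aa. The Cd209a difference of 14.5 percentage points was 8.49 without the library labelled skin 1.

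**Figure D5:**
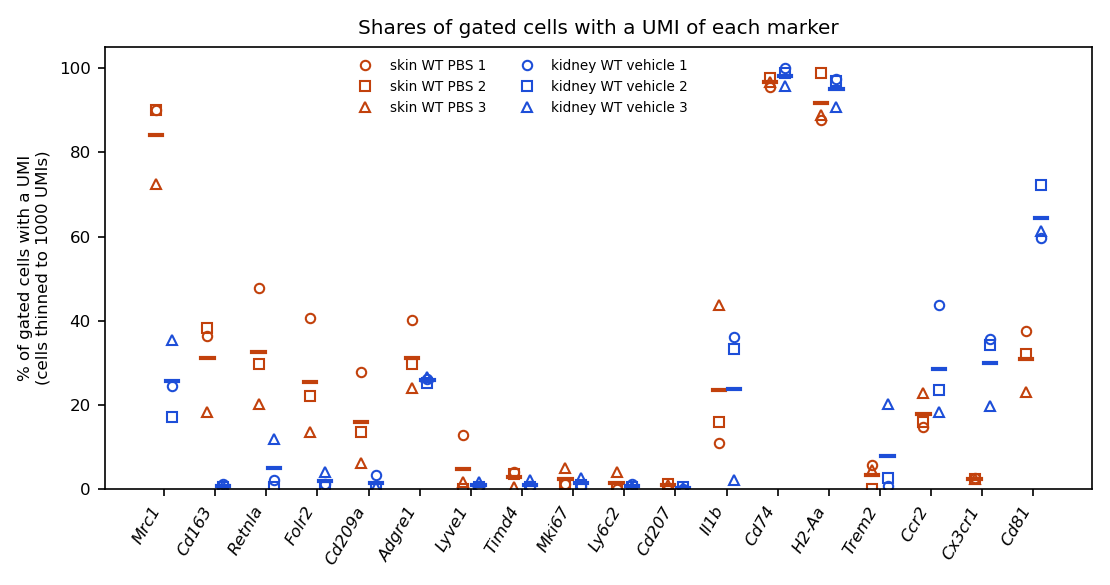
Percent of gated cells with at least 1 UMI of each marker (vertical axis) after thinning to 1000 UMIs per cell, with 1 point per library, its colour the tissue and its shape the replicate, and short horizontal lines at the means of 3 libraries. Mrc1 and Cd163 are highest in the skin libraries and Cx3cr1 and Cd81 in the kidney libraries, while H2-Aa lies between 87.6% and 98.8% in every library.

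Untreated SARATg libraries, 1 of skin with 326 gated cells and 2 of kidney with 559 and 573, gave values outside the choice of genes. All 15 skin-higher genes lay higher in the skin library than in both kidney libraries, and all 15 kidney-higher genes lay lower, against 38.2% and 48.3% of all genes tested. With 1 skin library no test was made. Areg measured 338 CPM in SARATg skin and 0 CPM in both kidneys, Cxcl2 5602 CPM against 43.5 and 87.5 CPM, and Il10 253 CPM against 0.315 and 0.601 CPM. Cd163 measured 176 CPM in skin and 15.1 and 80.5 CPM in kidney, a narrower gap than in the WT libraries. The skin to kidney ratio also fell for Cd209d (278 against 1.89 and 93.9 CPM) and Tslp (18.7 against 2.21 and 10.0 CPM). It fell for Tfrc too (174 against 6.62 and 29.0 CPM), whereas it rose for Cxcl2 and Il10. Free RNA was put at 31.6% and 58.1% of gated UMIs in the SARATg kidney libraries and at 4.73% in SARATg skin. Cx3cr1 measured 21.3 CPM in skin and 597 and 430 CPM in kidney. These libraries share neither cells nor controls with the WT comparison, and all 3 used the shorter gene list.

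Libraries of treated mice gave the named genes under bleomycin in skin and aristolochic acid in kidney, again with no test. In treated WT mice 14 of the 15 skin-higher genes lay higher in every skin library than in every kidney library (background 25.2% of all genes tested), the exception being Cd163. Of the 15 kidney-higher genes 14 lay higher in every kidney library (background 31.7%), Saa3 being the exception. In libraries labelled treated SARATg, with 1 library per tissue, the counts were 15 of 15 and 14 of 15 (backgrounds 47.7% and 52.3%), and Alox15 lay the opposite way. The treated kidney libraries did not all go with their genotype labels. Mouse Zfyve9 in gated cells measured 9.29 CPM in the library labelled SARATg and 162, 10.0 and 10.1 CPM in those labelled WT. Untreated SARATg kidney libraries measured 114 and 99.8 CPM. These labels were kept too.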

How the data were processed

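Droplet-based single-cell 3′ RNA sequencing (10x Genomics) was performed by the authors on sorted GFP+ cells. The deposited values are UMI counts per gene and barcode, made by the authors with Cell Ranger, with barcodes already called and no normalization. File headers give Cell Ranger 4.0.0 for the skin libraries labelled 1 and 2, 3.1.0 for the one labelled 3 and 3.0.2 for kidney, and per the labels' processing notes the build was mm10, with Cell Ranger 3.0.2 and Seurat 2.3.4. The skin libraries labelled 1 and 2 hold a list of 32286 genes and the others one of 31053, and the 30406 genes shared by Ensembl identifier were used. Of these, 51 differed between the lists by over 4 times in whole skin libraries.

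Macrophages were gated as described, with no doublet caller (scrublet in scanpy 1.11.5 was an alternative), and their counts were summed per library. Genes passing filterByExpr were fitted in edgeR 4.0.16 (R 4.3.3) with TMM factors and tissue as the only term, with two-sided quasi-likelihood tests and Benjamini-Hochberg adjustment over all genes tested. The fit was tested on simulated data for this comparison, where 46% of 200 genes changed by a log2 fold of 2 were recovered with 8% false calls, and 0% of those changed by a log2 fold of 1 among 10474 genes. The simulation changed far fewer genes than the 3479 called in the data. Its adjusted p was therefore stricter, and its recovery does not give the power of the comparison itself. Library depth was 3355217 to 137093834 UMIs. Intervals are exact at 95% and cover counting error only, as PCR and capture are not in them. Free RNA was estimated from kidney tubule, keratinocyte, stroma and skeletal muscle markers, taken as absent from macrophages. Their level in gated cells was set against that in all cells kept from the library, gated cells included. Among these markers was Mgp, which was also named higher in kidney, so the estimate may count RNA of the gated cells themselves.

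Up to 15 genes per tissue were named, in order of log2 difference, among those with an adjusted p below 0.05, no overlap between tissues, a mean of at least 50 CPM in the higher tissue, at least 2 times the level of Ptprc-free cells in each library of that tissue, and no difference between the gene lists. Ribosomal, mitochondrial, sex-linked, predicted and gate genes were left out. Members of gene lists were named besides, and some that enter the counts of lists are not reported here. The members of the gate and of the lists were chosen with earlier results of these data known. Shares were tested by an exact permutation test over libraries. Promoters came from a RefSeq table of GRCm38.p6, matched by symbol. Alternatives covered DESeq2 1.42.0, size factors, filters, gates, gene lists, a replicate block and left-out libraries. Positions of promoters are from RefSeq on GRCm38.p6, and those of genes from the GENCODE annotation of the same build.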

Additional observations from a re-analysis of the deposited data

Results flagged for a closer look

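The transgene entry was read in libraries labelled WT, where it was not part of any comparison. Human ZFYVE9 measured 1060 CPM in gated cells of the library labelled skin 1 and 211 CPM in those of the library labelled skin 2, and no wild-type kidney library has this entry in its gene list. For a pair of genes the untreated SARATg libraries all lay the opposite way to the WT libraries, a difference that was not tested. Lyz2 was higher in every WT kidney library than in every WT skin library, whereas SARATg skin (5881 CPM) lay above SARATg kidney (5768 and 3888 CPM), by 1053 CPM over their mean. Itgax, called higher in WT kidney, lay 34.0 CPM higher in SARATg skin than in the mean of SARATg kidney.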

How the results depend on the processing

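The total of 3479 genes ranged from 2056 to 4222 with 1 library left out, the 1815 skin-higher genes from 1163 to 1905, and the 1664 kidney-higher genes from 841 to 2317. With the gene list as a covariate 1445 genes passed (1069 higher in skin, 376 in kidney), and 461 (409 and 52) with libraries of the shorter list only, which keeps 1 skin library whose spread is taken from the kidney libraries. Thinned to 1000 UMIs before the gate, 774 passed (397 and 377) of 2331 tested. After free RNA was subtracted, kidney-higher calls were 985. Without the skin libraries labelled 1 and 3, a setting chosen after seeing the data, 269 passed (240 and 29). The cause of these changes was not tested, apart from the fewer genes or libraries that some settings leave. Every other setting gave counts within 1.5 times, among them DESeq2 with 3526 and the gate on Csf1r and Adgre1 without C1q with 4179.

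A replicate block gave 3327 calls (1707 and 1620). Deviations of same-numbered libraries correlated at r = 0.0544, 0.0159 and 0.103, so the numbers were not taken to pair libraries. Of the 30 genes named by rule, 23 kept the call with the gene list as a covariate, 19 with the shorter list only and 14 without the skin libraries labelled 1 and 3, and 0 changed direction in any setting. Among other genes of the text, the log2 difference of Itgax was 0.22 with the untreated libraries of the shorter list of both genotypes, and that of Cd74 was 0.17 under the gate without C1q, both of the opposite sign and not called. Of the 180 called members of gene lists, 1 changed direction with the gene list as a covariate, 1 with the shorter list only, 1 with both genotypes, 4 under the gate without C1q and 2 with free RNA subtracted. Differences in the shares of the 7 markers that separated the tissues kept their direction in every setting. The 30 named genes and these 7 markers had no overlap between the tissues to begin with. Settings that leave out libraries could therefore hardly turn their direction. Depth limits genes with few UMIs, such as Areg and Il6 in kidney.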

Other observations

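Within skin, the library labelled skin 3 was the only male one of the WT PBS libraries by Xist and Ddx3y. It was the lowest of these for Cd163, Mrc1, Folr2, Cd209d and Clec10a and the highest for Il10, Il1rn, Tnf, Ptgs2 and Cxcl2. Its thinned gated cells held a Mrc1 UMI in 72.4% of cases, against 90.1% in each of the other two, and an Il1b UMI in 43.7%, against 11.0% and 16.0%. The part of sex in these differences cannot be told apart from that of the library, its shorter gene list, its software version or its mouse Zfyve9 level. Kidney 3 stood apart among the kidney libraries, with 2556 CPM of Ccl8 against 22.4 and 22.0 CPM, 228 CPM of Arg1 against 0.995 and 6.05 CPM, and 22796 CPM of Lyz2, the lysozyme gene, against 5476 and 7112 CPM.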
